A study of Mus musculus with 6 samples.

Results

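The genes described are 10 secreted products of pancreatic acinar cells: the lipases and lipase cofactor Cel, Pnlip, Pnliprp1 and Clps, the amylase Amy2a5, the carboxypeptidases Cpa1 and Cpb1, the lectin-type proteins Zg16 and Reg1, and the granule protein Sycn. They were chosen by measured values of this series, because several of them were lower in SIRT1 deletion pools, and every probe carrying their symbol in the platform annotation was taken. That gave 13 probes for 9 of the 10 genes, out of 45281 probes on the array, and no probe in the annotation used here carries the symbol Pnlip. Differences between the groups are therefore given as descriptions without a test for these genes.

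RNA came from the ventromedial hypothalamus of mice aged 16 weeks on a mixed background, with each of the 6 samples a pool on 1 Illumina bead array. The 3 SIRT1 deletion pools came from Sf1-Cre; Sirt1loxP/loxP mice, and the 3 control pools from Sirt1loxP/loxP mice without Cre, so both groups carry the floxed allele on both chromosomes. Sf1-Cre acts in cells that express SF1, so only part of the cells in the dissected tissue could lose Sirt1. The labels do not state how many mice, or of which sex, made up a pool, so every spread given is one between pools.

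Acinar cells make digestive enzymes and store them in zymogen granules, which release them into the pancreatic duct. Lipases split dietary fat, amylase splits starch, and carboxypeptidases remove amino acids from the C-terminal end of peptides. Transcription of these genes in acinar cells depends on the PTF1 complex, which holds PTF1A and RBPJL, and on NR5A2, a close relative of SF1 that binds similar DNA. The ventromedial nucleus is known for its part in energy balance and glucose control, and pancreatic enzymes are not among its usual markers.

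The promoters of 4 of these genes are shown because the genes were low together in the same pools and the shown stretches hold the motifs searched for. RefSeq sequences of GRCm38.p6, from 250 bases before to 50 bases after the start of each gene, were found for 8 of the 10 genes. Those printed lie at chr2:28563354-28563653 (Cel, minus strand), chr6:30638968-30639267 (Cpa1, plus strand), chr3:113258650-113258949 (Amy2a5, minus strand) and chr6:78425733-78426032 (Reg1, plus strand), each written 5′ to 3′ on the strand of the gene. Capitals mark both elements of a CANNTG and TTTCCC pair (Cel and Cpa1, where the pair reads on the opposite strand as GGGAAA first), a CAAGGTCA (Cel, on the opposite strand) and a TATAAA (Amy2a5 and Reg1).
Cel: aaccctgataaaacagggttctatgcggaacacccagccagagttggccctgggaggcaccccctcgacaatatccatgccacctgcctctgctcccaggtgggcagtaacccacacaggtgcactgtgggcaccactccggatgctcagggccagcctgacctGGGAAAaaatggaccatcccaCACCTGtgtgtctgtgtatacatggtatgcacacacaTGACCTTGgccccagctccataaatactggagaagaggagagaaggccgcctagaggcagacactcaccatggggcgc
Cpa1: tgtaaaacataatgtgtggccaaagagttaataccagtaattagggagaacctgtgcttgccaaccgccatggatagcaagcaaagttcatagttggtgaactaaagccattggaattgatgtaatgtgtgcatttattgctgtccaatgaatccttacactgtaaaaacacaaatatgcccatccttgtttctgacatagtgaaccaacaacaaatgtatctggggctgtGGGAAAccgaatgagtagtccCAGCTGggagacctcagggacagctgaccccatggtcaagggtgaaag
Amy2a5: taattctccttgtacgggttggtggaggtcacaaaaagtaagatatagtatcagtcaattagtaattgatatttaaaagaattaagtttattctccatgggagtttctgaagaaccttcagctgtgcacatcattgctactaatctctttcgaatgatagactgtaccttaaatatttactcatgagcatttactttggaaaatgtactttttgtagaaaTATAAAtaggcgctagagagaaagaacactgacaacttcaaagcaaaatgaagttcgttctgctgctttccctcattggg
Reg1: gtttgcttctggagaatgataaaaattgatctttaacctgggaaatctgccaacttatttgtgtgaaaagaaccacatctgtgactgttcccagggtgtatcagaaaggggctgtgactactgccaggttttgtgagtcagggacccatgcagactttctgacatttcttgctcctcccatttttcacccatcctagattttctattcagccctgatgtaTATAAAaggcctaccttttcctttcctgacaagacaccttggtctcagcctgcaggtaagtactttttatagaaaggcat

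CANNTG followed within 20 bases by TTTCCC, the 2 elements that PTF1 contacts, was in 2 of the 8 promoters on either strand, against 2.47% of all 32851 promoters of this length. In Cel the pair ran from -86 to -60 and in Cpa1 from -19 to 8, counted from the gene's first base as 1, and 15 bases separated the elements in both. Single matches, which the pairs contain, were common: CANNTG was in 6 of 8 and in 72.3% of all promoters, and TTTCCC in 4 of 8 and in 25.2%. A TATAAA wholly between 40 and 20 bases before the start lay in 3 of the 8 (Pnlip, Amy2a5 and Reg1), against 1.87% of all promoters. CAAGGTCA, the element of SF1 and NR5A2, was in 1 of the 8, Cel, against 1.56%. These matches describe letters in a window and were not tested for binding.

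Arrays were similar in quality. Between 20053 and 20474 probes were detected in SIRT1 deletion pools and between 20123 and 20611 in control pools, where detected means a deposited detection p-value under 0.05. The lowest detected raw signal per array was between 144.1 and 145.5 units in SIRT1 deletion and between 148.8 and 153.6 in control pools, so the control arrays had the higher background. Ventromedial markers were present: Slc17a6, Cbln1 and Fezf1 were detected on all 6 arrays. The 10 listed ventromedial genes had a median log2 difference, SIRT1 deletion minus control, of -0.079, and 0 passed at a limma adjusted p under 0.05. Sox14 (-0.36, limma adjusted p = 0.427) had all deletion pools below all control pools, an order that 6.67% of all named genes had. Sirt1 had a log2 intensity of 7.65 in SIRT1 deletion and 7.69 in control pools (means, limma adjusted p = 0.941 over all features), and whether its probe lies within the floxed segment is not stated in the labels. Nr5a1, which encodes SF1, was near the detection limit, with mean raw signals of 160.6 in SIRT1 deletion and 155.8 in control pools. The log2 difference of this brighter probe was 0.45 (limma adjusted p = 0.427), and 0.11 without background correction. Its normalised values in all deletion pools lay above those in all control pools, an order that 6.26% of all named genes had. A second Nr5a1 probe, detected on 1 SIRT1 deletion array and no control array, had a difference of 0.30.

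All 9 genes with a probe were lower in SIRT1 deletion pools by their brightest probe, and in all 9 the 3 SIRT1 deletion pools lay below the 3 control pools. Among all 19057 named genes, treated the same way with no filter on detection, 6.67% had that order. Taken probe by probe, 10 of the 13 had it, against 6.09% of all probes. The median log2 difference, SIRT1 deletion minus control, was -0.94 over the 9 genes and -0.0048 over all named genes, of which the middle 95% lay between -0.28 and 0.28. Since the genes were chosen for this contrast, neither figure is support for it. All 9 passed the filter of detection on at least 3 of 6 arrays, 5 of them with detection on all 6, and Zg16 and Sycn passed through the control pools alone. In bulk tissue, fewer cells of a type and less RNA per cell cannot be told apart.

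**Figure D1:**
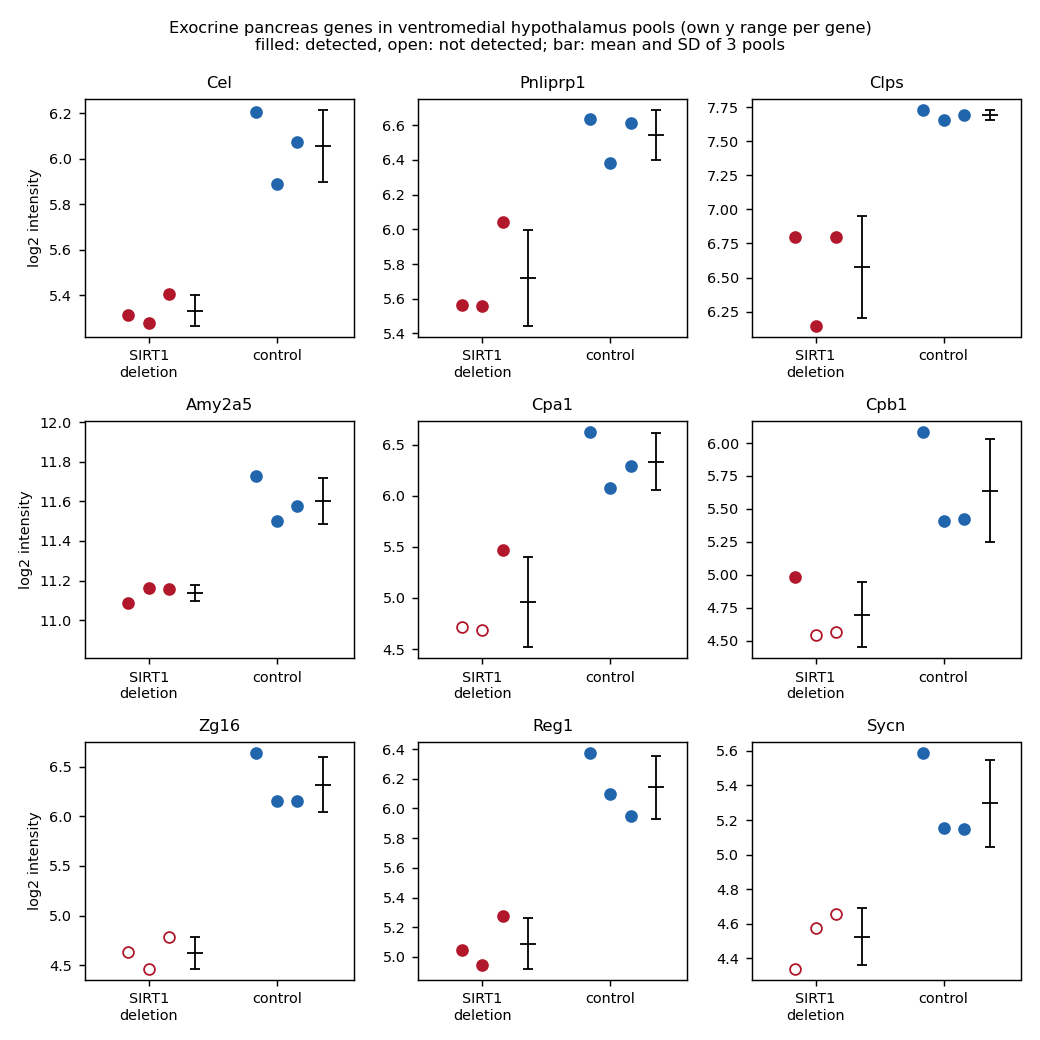
Normalised log2 intensity (y axis, own range in each panel) of the brightest probe of 9 exocrine pancreas genes in 3 SIRT1 deletion pools (red, left) and 3 control pools (blue, right); filled points were detected, open points were not, and bars give the mean and SD. In every panel the red points lie below the blue points, and Zg16 and Sycn have 3 open red points each.

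Cel encodes bile salt-activated lipase, which acinar cells and the lactating mammary gland secrete. Its raw signal was 154.2, 154.5 and 158.6 units in SIRT1 deletion pools 1 to 3, against 200.7, 184.2 and 191.4 in control pools 1 to 3. The groups did not overlap and the deletion pools were close to each other and near the detection limit. On the normalised log2 scale Cel was 5.33 ± 0.07 in SIRT1 deletion and 6.06 ± 0.16 in control pools (SD, n = 3 each), a difference of -0.72.

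Pnliprp1, a lipase-related protein with little known lipase activity, had signals of 160.9, 162.6 and 180.6 in SIRT1 deletion pools and 227.8, 209.4 and 224.5 in control pools. It was detected on all arrays, and deletion pool 3 was the highest of its group. The log2 difference was -0.82, with 5.72 ± 0.28 in SIRT1 deletion and 6.54 ± 0.14 in control pools (SD, n = 3 each). Its neighbour on chromosome 19, the related lipase Pnliprp2, had probes near background that disagreed. The brighter, detected on 3 of 6 arrays, overlapped between the groups with a log2 difference of 0.13 (limma adjusted p = 0.794). The dimmer, detected on no array, had all deletion pools below all control pools, with a difference of -0.074.

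Clps encodes colipase, the cofactor that holds pancreatic lipase on fat droplets in the presence of bile salts. Its brighter probe read 219.1, 185.4 and 223.9 in SIRT1 deletion pools and 332.4 to 345.9 in control pools. The control pools were almost equal, with a log2 intensity of 7.69 ± 0.04, while the deletion pools spread more widely around 6.58 ± 0.38 (SD, n = 3 each), with pool 2 the lowest. A second Clps probe gave the same order. It read 151.4, 160.5 and 154.5 in SIRT1 deletion pools and 214.3, 206.1 and 186.2 in control pools, and the log2 differences of the probes were -1.11 and -0.93.

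Amy2a5 is a pancreatic amylase gene in a row of near-identical copies on chromosome 3. The brightest of its 3 probes read 2143, 2267 and 2265 in SIRT1 deletion pools and 3669, 3192 and 3418 in control pools. This probe was far above background on every array, and its log2 difference of -0.47 lay between -0.63 and -0.43 over the other processing settings. Intensities were 11.14 ± 0.04 in SIRT1 deletion and 11.60 ± 0.12 in control pools (SD, n = 3 each).

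The other amylase probes did not follow it. The second Amy2a5 probe, detected on all arrays, read 157.1, 162.3 and 181.8 in SIRT1 deletion pools and 213.3, 172.6 and 157.5 in control pools, and the groups overlapped. Its log2 difference of -0.051 depended on single pools: it was 0.29 without control 1, 0.076 without SIRT1 deletion 1 and 0.016 without SIRT1 deletion 2, but -0.12 without control 2, -0.33 without control 3 and -0.25 without SIRT1 deletion 3. The dimmest Amy2a5 probe and the 1 probe of Amy2a4, the next copy, were detected on no array. Amy1, the salivary amylase gene on the same chromosome, had 2 probes detected on all arrays with log2 differences of 0.31 and 0.11, and the one that represents it did not pass (limma adjusted p = 0.548). Probe sequences were not used here, and probes of this family may bind more than 1 copy.

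**Figure D2:**
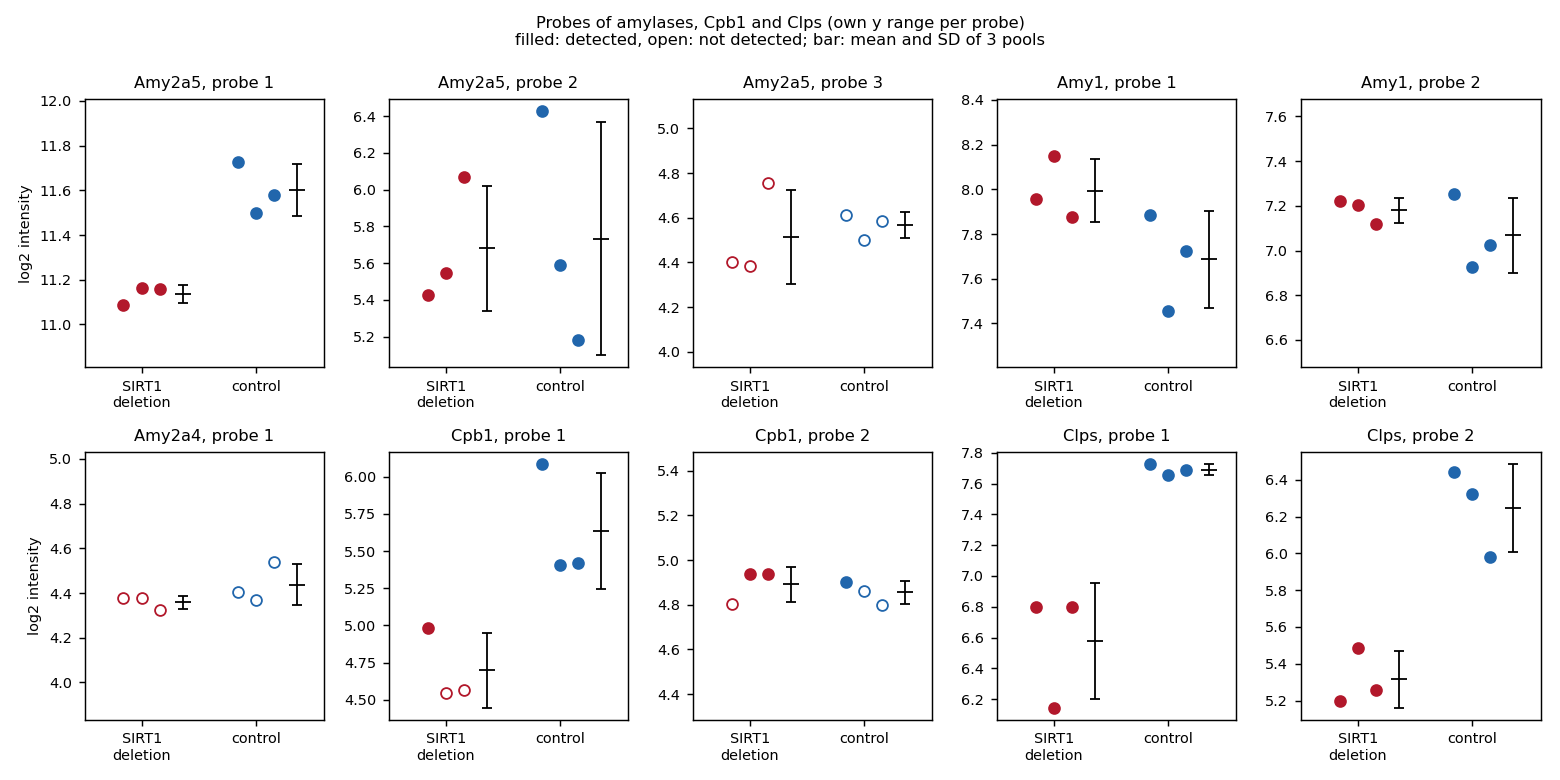
Normalised log2 intensity (y axis, own range in each panel) of every probe of Amy2a5, Amy1, Amy2a4, Cpb1 and Clps in SIRT1 deletion pools (red, left) and control pools (blue, right), with open points not detected and bars for mean and SD. Both Clps probes separate the groups, while only probe 1 of the 3 Amy2a5 probes and probe 1 of the 2 Cpb1 probes do.

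Cpa1, which removes aromatic and aliphatic residues from peptides, read 139.9, 139.6 and 160.2 in SIRT1 deletion pools and 227.0, 192.5 and 203.0 in control pools. It was detected in deletion pool 3 only among the deletion pools and in all 3 control pools. The log2 difference was -1.37, with 4.96 ± 0.44 in SIRT1 deletion and 6.33 ± 0.28 in control pools (SD, n = 3 each), so part of the difference comes from arrays where Cpa1 was not detected. Neighbouring carboxypeptidase genes on chromosome 6 did not share the order: Cpa4 overlapped between the groups at -0.14, and Cpa5 was detected on no array.

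Cpb1, which removes basic residues, had 2 probes that disagreed. The brighter read 146.5, 135.1 and 136.8 in SIRT1 deletion pools and 194.5, 166.2 and 164.8 in control pools, a log2 difference of -0.94 with 1 of 3 deletion arrays and 3 of 3 control arrays detected. The other probe read 142.0, 146.1 and 147.0 in SIRT1 deletion and 153.8, 151.1 and 147.2 in control pools. These values lie at the detection limit, the groups overlapped after normalisation, and the log2 difference was 0.037. The labels and files do not say which part of the transcript each probe binds.

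Zg16 encodes a lectin of the zymogen granule membrane that intestinal goblet cells also make. Signals were 137.5, 132.0 and 143.4 in SIRT1 deletion pools, none detected, and 227.8, 197.0 and 195.5 in control pools, all detected. Against the lowest detected intensity on each deletion array, Zg16 was at least 2.70-fold lower in SIRT1 deletion pools with the normalisation used here. This bound does not carry over to other processing. The measured log2 difference was -0.96 with an offset of 50, -0.66 in the authors' table and -0.51 without background correction. The measured log2 means were 4.63 ± 0.16 in SIRT1 deletion and 6.32 ± 0.28 in control pools (SD, n = 3 each), and the difference of -1.69 rests on deletion values below the detection limit. Of all probes, 0.141% were detected on all 3 control arrays and on no SIRT1 deletion array, as Zg16 and Sycn were, and 0.113% had the opposite pattern. Since these genes were chosen for being lower in SIRT1 deletion pools, the shares are no support for the difference.

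Reg1, a secreted C-type lectin first described in pancreatic stones and regenerating islets, read 147.9, 146.3 and 155.0 in SIRT1 deletion pools and 210.2, 193.8 and 185.0 in control pools. The deletion pools were barely above their detection limit, with detection p-values of 0.0246, 0.0363 and 0.00962. The log2 difference was -1.05, with 5.09 ± 0.17 in SIRT1 deletion and 6.14 ± 0.21 in control pools (SD, n = 3 each). Its neighbour Reg2 was not above background in any deletion pool and at least 1.11-fold lower (limma adjusted p = 0.514), while Reg3d and Reg3g in the same cluster on chromosome 6 were detected on no array. Reg3b, on the same chromosome, was detected on 1 SIRT1 deletion and 2 control arrays by its brighter probe. That probe overlapped between the groups, with a difference of 0.061 (limma adjusted p = 0.934).

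Sycn encodes syncollin, a protein of the inner granule membrane that takes part in enzyme release. Its signals were 125.5, 136.3 and 139.8 in SIRT1 deletion pools, none detected, and 173.7, 158.9 and 156.6 in control pools, all detected. It was at least 1.33-fold lower in SIRT1 deletion pools by the bound, which holds for this normalisation only, and the measured log2 difference was -0.77.

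Within each group the same pools were often at the top or bottom. Control 1 was the highest of the control pools for 9 of the 9 genes, compared with 35.3% of all features. Deletion pool 3 was the highest of its group for 6 of 9 genes (32.0% of all features), and deletion pool 2 the lowest for 7 of 9 (32.4%). In deletion pools 1 to 3 the brightest probe was detected for 6, 5 and 6 of the 9 genes. Part of the order among deletion pools therefore rests on values below the detection limit. The mean log2 intensity over the 9 genes was 5.83, 5.71 and 6.02 in SIRT1 deletion pools 1 to 3, against 7.07, 6.70 and 6.77 in control pools 1 to 3. Genes of 1 pool share that pool's RNA, so the 9 genes are not independent counts of this order.

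The size of the differences depended on how the background was treated. Without background correction the median log2 difference of the 9 genes was -0.31, with an offset of 50 it was -0.55, and in the authors' normalised table it was -0.41. The order of the groups was kept for all 9 genes in each of these settings. It was also kept when any 1 pool was left out. Leaving out a pool cannot by itself make separated groups overlap, so this was fixed in advance apart from renormalisation. With 1 pool left out the median lay between -1.05 and -0.77.

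**Figure D3:**
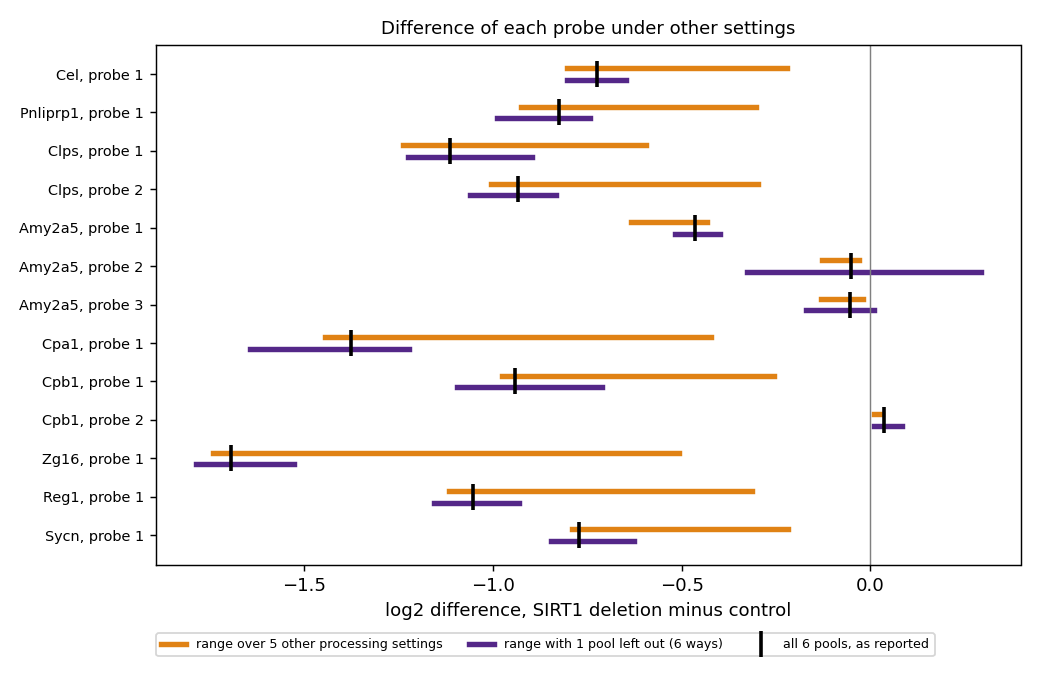
Log2 difference, SIRT1 deletion minus control (x axis), of each of 13 probes with all 6 pools (black mark), its range over 5 other processing settings (orange) and its range with 1 pool left out in turn (purple). The ranges of 10 probes stay below 0, while probes 2 and 3 of Amy2a5 cross 0 and probe 2 of Cpb1 stays above it.

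Other acinar products were read from lists of genes outside the 9. Of 18 listed pancreatic proteases and inhibitors 16 had a probe and 10 passed the detection filter. All 16 had lower means in SIRT1 deletion pools, as did 9877 of all 19057 named genes. In this list 4 genes passed at a limma adjusted p under 0.05, all lower, where 0.0492% of all 14221 features passed in that direction: the elastase Cela2a (log2 difference -1.34, adjusted p = 0.0352), the trypsinogens Try4 (at least 2.03-fold lower, 0.00359) and Try5 (at least 1.69-fold lower, 0.00350), and the trypsinogen-like Gm5409 (at least 1.40-fold lower, 0.0416). Of these 4 only Cela2a was detected in deletion pools: Try4, Try5 and Gm5409 were detected on 3 of 3 control arrays and 0 of 3 deletion arrays, so they passed the filter only through the group where they are high, and their number is not read as support. The list was written with earlier results of these data known. The "at least" folds hold for this normalisation only. In the authors' table the measured log2 differences were -0.47 for Try4, -0.37 for Try5 and -0.30 for Gm5409. The number of calls was 0 without control 1, control 2 or control 3, in part because genes undetected in deletion pools then fail the detection filter, 2 without SIRT1 deletion 1, 2 with the replicate number as a block, and 1 with detection p under 0.01 required on all 6 arrays. Summed normalised intensity over its 16 genes was 325.4 to 505.3 in SIRT1 deletion and 859.6 to 1066 in control pools. Cela2a, the brightest gene of the list (log2 means 7.62 in SIRT1 deletion and 8.96 in control pools), weighs most in this sum, and 6 of the 16 genes were detected on no array. Chymotrypsin-like Ctrl (-0.49) and the elastase Cela1 (-1.06) did not pass (limma adjusted p = 0.427 and 0.169).

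The second list held 16 further lipases, amylases, carboxypeptidases, lectins and granule proteins, of which 14 had a probe and 7 passed the detection filter. None passed the limma test at an adjusted p under 0.05 in either direction, where 0.105% of all features did. An unadjusted p under 0.05 was found for 3 of the 7, against 8.82% of all features, with Rnase1 and Reg2 lower and Amy1 higher in SIRT1 deletion pools. Reg2 was detected in control pools alone, so it entered the 7 only through the group where it is high, and this count is not read as support. Its median difference was -0.0093 over the 14 genes, 7 of which had lower means, and 6 were detected on no array. Rnase1, a ribonuclease that endothelium also makes, had -0.50 (limma adjusted p = 0.279), the granule membrane protein Gp2 -0.31 (0.640), and the phospholipase Pla2g1b -0.24 (0.634). In this list 2 of the 14 genes, Rnase1 and Reg2, had all deletion pools below all control pools, an order that 6.67% of all named genes had. The opposite order, found in 6.26% of named genes, was that of 2 genes detected on no array, Erp27 and Reg3g.

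Regulators of acinar genes and markers of other tissues were mostly at background. Of 9 acinar transcription factors with a probe 6 were detected on no array, among them Ptf1a and Bhlha15, and the median difference of the list was -0.00079. Its brightest gene, Xbp1, a factor of secretory cells that many tissues express, was detected on all 6 arrays with a log2 intensity of 10.74 in SIRT1 deletion and 10.73 in control pools (limma adjusted p = 0.987). Rbpjl was detected on 1 SIRT1 deletion array and 2 control arrays (-0.091), and the brightest Nr5a2 probe on 2 arrays of each group (-0.0090). Islet genes were detected on no array for 9 of 10, including Ins2 and Gcg. The other was the zinc transporter Slc30a8 (0.067, limma adjusted p = 0.869), and the islet sum was 63.7 to 70.6 in SIRT1 deletion and 67.1 to 79.0 in control pools. Of 6 duct genes 3 were undetected on every array, as were 8 of 11 salivary gland genes, 6 of 11 liver genes, with Alb among them, and 10 of 14 stomach and intestine genes. No gene of these lists passed at a limma adjusted p under 0.05, and the brightest duct, liver and stomach and intestine genes were Sox9, also an astrocyte factor (0.28, adjusted p = 0.586), the apolipoprotein Apoa1 (-0.010, 0.989) and the lysozyme Lyz1 (-0.16, 0.784). An unadjusted p under 0.05, which 8.82% of all features had, was found for 2 of 3 tested salivary gland genes, both higher in SIRT1 deletion pools (Amy1, 0.31, and Egf, 0.32). It was also found for 1 of 3 tested liver genes, Serpina1a, which was lower (-0.34) and detected in control pools alone. Whether acinar RNA reached the pools from outside the hypothalamus was not tested.

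Lipases and carboxypeptidases made outside the pancreas stayed near 0 as a list. Of 15 such genes with a probe 8 had lower means and 7 higher, with a median of -0.0039. Of the 10 that passed the detection filter 0 were called by limma and 1, Lpl, had an unadjusted p under 0.05, with a difference of 0.20. Cpe, the carboxypeptidase that trims neuropeptides, had a log2 intensity of 13.98 in SIRT1 deletion and 13.91 in control pools (limma adjusted p = 0.847). Adipose triglyceride lipase Pnpla2 had 9.21 in both SIRT1 deletion and control pools (0.998). Leptomeningeal and choroid plexus genes had a median of -0.13 over 10 genes, with sums of 984.9 to 1090 in SIRT1 deletion and 1043 to 1530 in control pools, which overlapped. Over the 6 of them that passed the detection filter the median was -0.28, and 0 were called. Of these 6 genes 5 were lower, among them Slc22a6 (-0.65), Igfbp2 (-0.55) and Dcn (-0.37), each overlapping between the groups, and Col1a1 was higher (0.092). The brightest gene of this list, Ttr, had a difference of -0.19 (limma adjusted p = 0.831), and Pmch, the brightest of the neighbouring hypothalamus list, 0.056 (0.879). The part of that tissue in the differences above was not tested.

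**Figure D4:**
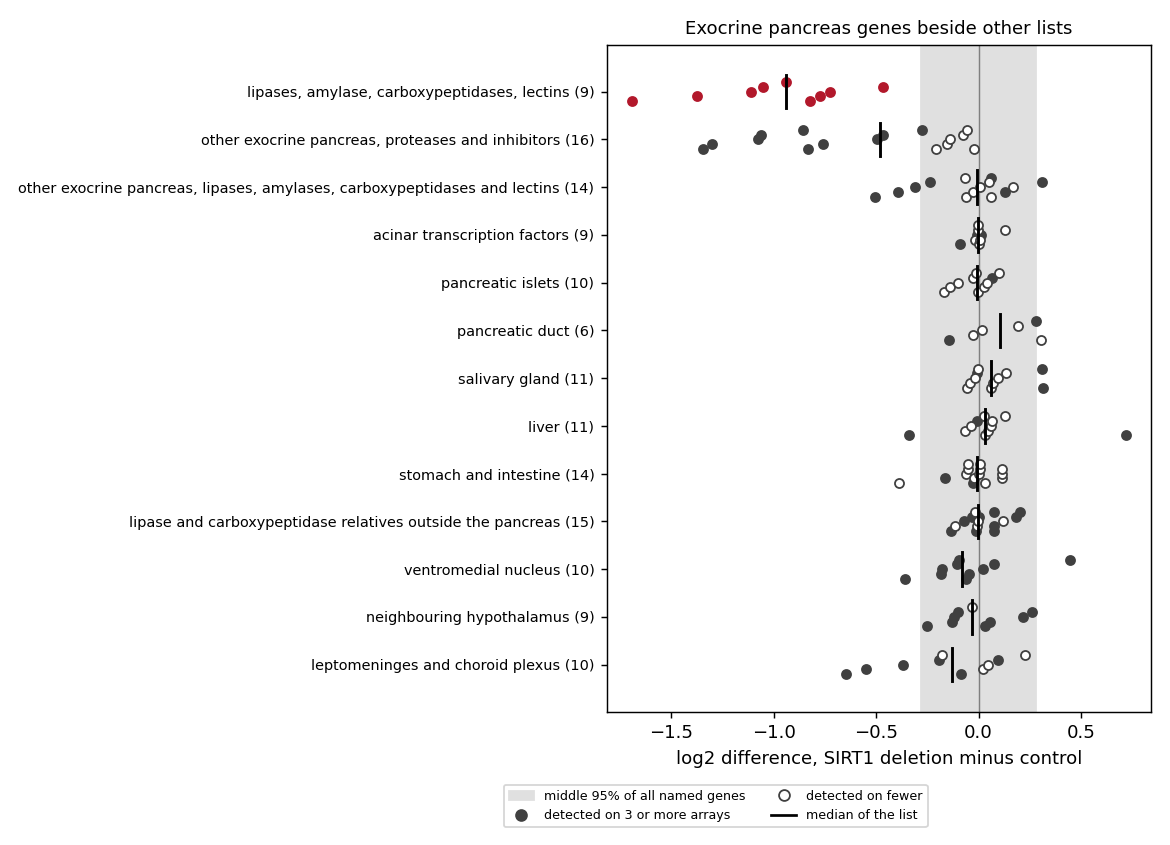
Log2 difference, SIRT1 deletion minus control (x axis), of each gene with a probe in 13 lists (number of genes in brackets), filled where detected on 3 or more arrays; black lines are list medians and the grey band holds the middle 95% of all named genes. The 9 genes of the top row lie left of the band, as do part of the pancreatic proteases (median -0.48), and the medians of the other 11 lists lie between -0.13 and 0.11.

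Genes outside the list were ranked by the Pearson correlation of their log2 intensities with the mean scaled pattern of the 9 genes over 6 arrays. The highest of 11040 named genes were Eif2d (0.993), Rabggtb (0.989), Ddost (0.986), Aqr (0.986) and Try4 (0.984). After each group was centred on its own mean, Ssr2, Ap3d1 and Mllt3 (each 0.996), then Rpl26 and 4933404O12Rik (each 0.995) came first. With 6 arrays and this many genes such values describe likeness only, and the lists had no gene in common.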

How the data were processed

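RNA pools were hybridised to Illumina bead arrays after Trizol extraction, DNase treatment and biotin labelling, per the labels' protocols. The deposited table gives for each of 45281 probes a mean bead intensity, neither background-subtracted nor scaled between arrays, and, per the file headers, a detection p-value. A second table of intensity, normalised by the authors and with equal column medians, served as an alternative. In R 4.3.3 with limma 3.58.1, normexp correction from the detection p-values, an offset of 16, quantile normalisation and log2 (neqc) were applied. The offset compresses differences of dim probes. Probes with detection p under 0.05 on at least 3 of 6 arrays were kept, and 1 probe per gene (highest mean) gave 14221 features, compared with lmFit and eBayes and Benjamini-Hochberg adjustment over all of them. Described genes use their brightest probe without that filter. "At least" folds set the control mean against, per deletion array, the higher of the lowest detected intensity and the probe's own. These bounds hold for this normalisation only and were not recomputed under the alternatives. Summed intensities are linear and exclude the offset. Gene IDs were matched to RefSeq GRCm38.p6, used for names, gene order and promoters. The members and lists were chosen with earlier results of these data known. Named genes outside the list were Sirt1, Nr5a1, called genes, the brightest of each list and the likest in pattern. Neighbours, undetected defining markers, other amylases, Rbpjl, Nr5a2, Egf, Serpina1a, Erp27 and Lpl were named after their values were seen. So were Reg3b, Sox14, Slc22a6, Igfbp2 and Col1a1. The fit was tested on simulated data. Alternatives covered background, offset, normalisation, filter, probe choice, variance prior, replicate block and each pool left out. The number of arrays limits the precision. Python 3.11.15 with matplotlib 3.10.9 drew the figures.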

Additional observations from a re-analysis of the deposited data

How the results depend on the processing

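Of all 14221 features 15 passed at a limma adjusted p under 0.05, 8 higher and 7 lower in SIRT1 deletion pools. The number was 9 without a detection filter, 4 with detection p under 0.01 on all 6 arrays, 29 with an intensity trend and robust prior, and between 6 and 10 with 1 pool left out, under 10 for each pool except SIRT1 deletion 3. With median scaling, which moved the median of all features to -0.13, there were 7 higher and 14 lower, and with an offset of 50 there were 8 higher and 11 lower. Deviations of pools with the same replicate number correlated at -0.052, -0.044 and -0.023. Pools with different numbers were not compared, so whether the numbers pair the pools was not settled. With the replicate block 10 features passed. The median difference of the 9 exocrine genes was -0.94 and moved to -0.72 with normexp on the signal alone, -0.31 without background correction, -0.55 with an offset of 50 and -0.41 in the authors' table, and lay between -1.05 and -0.77 with 1 pool left out. All 9 genes kept the order of the groups in each setting tried with 1 probe per gene, and 10 of 13 probes had it when every probe was used. Where 1 pool was left out, that outcome was fixed in advance apart from renormalisation. Calls among the other pancreatic proteases, 4 in all, numbered 2 without background correction, without a detection filter and with the replicate block, and 1 with detection p under 0.01 on all 6 arrays (counted after seeing the data). With 1 pool left out, the difference of the second Amy2a5 probe ranged from -0.33 to 0.29, that of the dimmest from -0.17 to 0.011 and that of Sirt1 from -0.092 to 0.039, with turned signs when control 1 (second Amy2a5 probe and Sirt1), SIRT1 deletion 1 or 2 (both Amy2a5 probes) or SIRT1 deletion 3 (Sirt1) was absent. Differences near 0 of genes that were not called also turned. Median scaling gave -0.17 for Xbp1, -0.081 for Cpe, -0.16 for Pnpla2 and -0.10 for Pmch. With 1 pool left out, ranges crossed 0 for Xbp1 (-0.072 to 0.075), Nr5a2 (-0.075 to 0.060), Slc30a8 (-0.016 to 0.15), Apoa1 (-0.078 to 0.073), Lyz1 (-0.32 to 0.028), Pnpla2 (-0.049 to 0.054), Slc17a6 (-0.084 to 0.012), Cbln1 (-0.13 to 0.017), Pmch (-0.0084 to 0.11) and Ttr (-0.39 to 0.018). The cause of these shifts was not tested. Signal over background limits all of the described probes except the brightest of Amy2a5.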
